A study of Homo sapiens with 16 samples.

Results

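The arrays of HCT116 cells with trichostatin A (TSA) and without it are described here. HCT116 is a human colon carcinoma line with wild-type p53 and a stabilised beta-catenin, and TSA is a hydroxamate that inhibits histone deacetylases (HDACs). Histone deacetylases remove acetyl groups from lysines of histones and of many other proteins, and most of them work inside corepressor complexes that transcription factors bring to genes. Inhibitors of these enzymes are known to arrest colon cancer cells, with CDKN1A, the gene of the CDK inhibitor p21, as the best known induced gene, and they also lower the transcripts of many genes.

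The arrays are given by their labels: of the 16 arrays of the series, 8 are of HCT116 cells, 4 of these carry TSA in the label and 4 do not. The 4 arrays with TSA are TSA alone, TSA with PJ-34, TSA with 5-aza-dC and TSA with both, and the 4 without TSA are the control, PJ-34, 5-aza-dC and both of these together. PJ-34 is an inhibitor of poly(ADP-ribose) polymerases, and 5-aza-dC (5-aza-2′-deoxycytidine) one of DNA methyltransferases. The cells received 150 nM TSA, 0.5 µM 5-aza-dC and 3 µM PJ-34 for 3 days. The label of the control does not say whether it held solvent. The other 8 arrays are of RKO, a second colon carcinoma line, under the same 8 combinations, and serve below as the comparison. Each condition of a line had 1 array. The TSA effect is therefore the difference between 4 arrays and 4 arrays with PJ-34 and 5-aza-dC as further terms of the model, the SD of a group of 4 includes what the other drugs did, and p-values measure the spread between conditions rather than between cultures of a condition. RNA of all cells of a dish was pooled, so a change in every cell and a change in some of the cells cannot be told apart.

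In the following, the 4 signals with TSA are in the order TSA, PJ-34/TSA, 5-aza-dC/TSA and PJ-34/5-aza-dC/TSA, and the 4 without TSA in the order control, PJ-34, 5-aza-dC and PJ-34/5-aza-dC. A signal is the deposited linear intensity of a probe set, scaled beforehand by the array software to one trimmed mean for all arrays. A probe set was tested where its signal reached 100 in at least 4 of the 8 arrays, and signals under 50 were set to 50 before log2. A change is the log2 of the signal with TSA over that without TSA, ± its standard error, and "past the test" means a p adjusted by Benjamini-Hochberg (limma, over all probe sets tested) under 0.05. Each gene is represented by the probe set with the highest mean log2 signal.

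The median signal of an array was 171 ± 10.1 with TSA and 192 ± 15.7 without TSA (SD, n = 4 each; exact permutation test, 2-sided, p = 0.0857, where the smallest p that 4 against 4 arrays allow is 0.0286). The share of probe sets at a signal of 100 or more was 62.9% ± 1.91 with TSA and 65.3% ± 1.84 without TSA (exact permutation test, 2-sided, p = 0.143). Since the scaling fixed the mean of every array, a change in the total RNA of a cell would not show. The epithelial genes EPCAM, CDH1, KRT8, KRT18 and KRT19 had a signal of at least 250 in all 8 arrays, whereas the 6 intestinal markers CDH17, CDX1, CDX2, CEACAM5, LGALS4 and VIL1 stayed at 303 or less with TSA and at 553 or less without TSA. Of 9 fibroblast markers COL1A1 alone reached 250 in every array, and the summed signal of the 9 ran between 1429 and 2150 with TSA and between 2244 and 4548 without TSA. Of 7 markers of blood cells none did so, with SPI1 under 50 in all 8 arrays and sums of 814 to 1133 with TSA and 636 to 1755 without TSA. None of 7 endothelial markers did so either, with sums of 547 to 717 with TSA and 535 to 829 without TSA.

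TSA was followed by changes in both directions. Of 35373 probe sets, 1473 (4.16%) rose and 1707 (4.83%) fell, together 3180 (8.99%). Counting each of 14700 genes once, 864 (5.88%) rose and 901 (6.13%) fell. These shares are the background for the counts of every gene list below. The genes that fell moved further: their median change was -0.73, against 0.58 for those that rose, and 229 genes fell by at least 1 on the log2 scale while 56 rose by that much. The 4 arrays with TSA did not overlap the 4 without TSA for 1147 genes that were higher (7.8% of all) and 1223 that were lower (8.32%). Among the genes past the test, 858 of the 864 were higher, and 880 of the 901 were lower, in all 4 pairs of arrays that differ in TSA alone. These genes were called with the same arrays, so this agreement is no independent evidence. The median change over all genes was -0.03, and 6840 genes (46.5%) had a positive change.

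The array with PJ-34/5-aza-dC stood nearest to the arrays with TSA. After each gene was centred on its mean over the 8 arrays, the genes that rose had a median of 0.34, 0.27, 0.22 and 0.34 in the 4 arrays with TSA, against -0.39, -0.35, -0.34 and -0.06 in the 4 without TSA. The genes that fell had a median of -0.43, -0.33, -0.26 and -0.40 with TSA, against 0.47, 0.47, 0.38 and 0.19 without TSA. Without that array 1442 genes rose and 1314 fell. The counts were lower without any of the other arrays lacking TSA, at 273 genes up and 288 down without the control, 268 and 270 without PJ-34, and 289 and 309 without 5-aza-dC. They were 451 and 480 without PJ-34/5-aza-dC/TSA, 476 and 567 without PJ-34/TSA, 727 and 875 without 5-aza-dC/TSA, and 818 and 903 without TSA alone. In all 8 of these fits 218 genes stayed past the test upward and 223 downward, and where a call was lost in any of them, the arrays whose absence ended it, or the number of the 8 fits in which it held, are given below. The test also leaned on the way limma estimates the spread: when the spread was not allowed to follow the mean signal, no probe set passed (smallest adjusted p = 0.0594), although 6977 had an unadjusted p under 0.05, against 8476 in the fit used here.

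**Figure D1:**
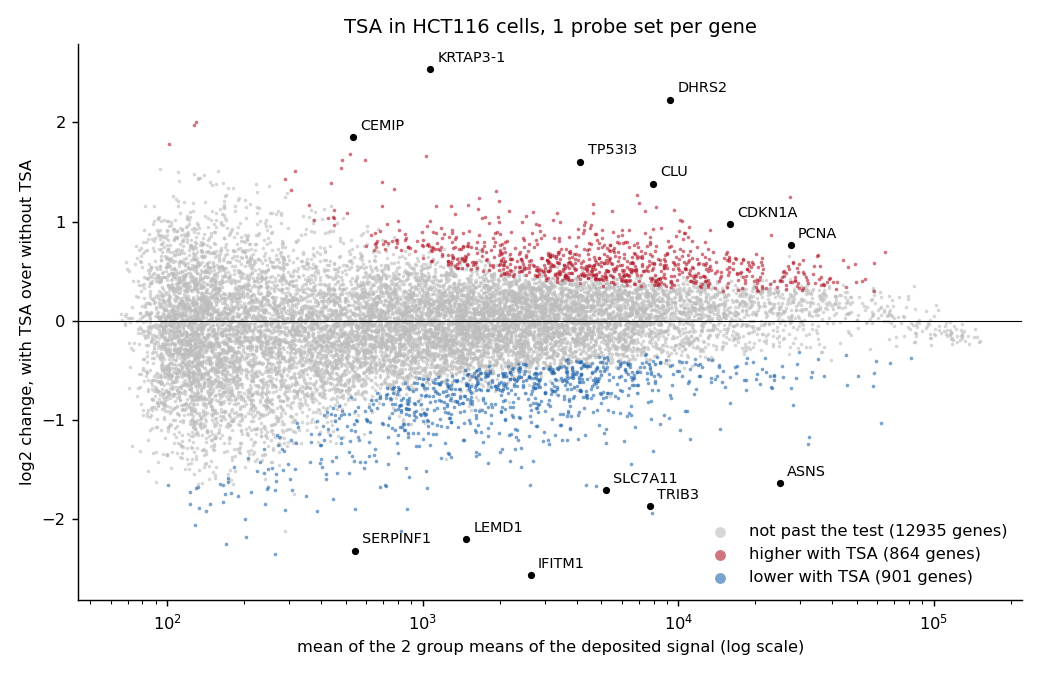
Change of each of 14700 genes under TSA in HCT116 cells (vertical axis, log2 of the signal with TSA over that without TSA) against its mean signal (horizontal axis, log scale). Red points are the 864 genes that rose past the test, blue points the 901 that fell, grey points the rest, and black points are named genes. More blue points lie below -1 (229 genes) than red points above 1 (56 genes).

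The genes with the largest increases code for proteins with unlike functions. Genes with the largest increases or decreases were named only where all 4 pairs of arrays that differ in TSA alone changed the same way. For these genes the agreement between pairs is therefore no finding. DHRS2, a dehydrogenase of the short-chain family, had signals of 4347, 5871, 26046 and 21415 with TSA, against 626, 806, 7126 and 8149 without TSA. The 2 groups overlap, since it was also higher in the arrays with 5-aza-dC, but every array with TSA was above its partner without TSA (log2 change 2.23 ± 0.20, adjusted p = 8.29e-05). For KRTAP3-1, a keratin-associated protein of hair, the signals were 900, 907, 2337 and 2250 with TSA, against 30.6, 86.8, 614 and 1424 without TSA. It had the largest increase of all genes past the test (log2 change 2.54 ± 0.41, adjusted p = 0.00297), with the control array set to the floor of 50, and it was again higher in the arrays with 5-aza-dC, so that the 2 groups overlap.

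CEMIP, a secreted protein that binds and degrades hyaluronan, had signals of 826, 954, 751 and 809 with TSA, against 263, 266, 168 and 239 without TSA. The groups were far apart and the arrays within each were alike (log2 change 1.85 ± 0.24, adjusted p = 0.000687). SULF2, an extracellular enzyme that removes sulfate from heparan sulfate, had 1119, 1596, 1752 and 1771 with TSA, against 308, 522, 523 and 665 without TSA (log2 change 1.66 ± 0.18, adjusted p = 0.000352), again with no overlap. CLU, which codes for the chaperone clusterin, had signals of 8129, 11436, 13265 and 13137 with TSA, against 3810, 3243, 4581 and 6168 without TSA (log2 change 1.38 ± 0.13, adjusted p = 8.29e-05). The groups do not overlap, and 2 of the 4 CLU probe sets passed the test.

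RUNX2, a transcription factor of bone, averaged 897 ± 125 with TSA and 293 ± 56 without TSA (log2 change 1.62 ± 0.22, adjusted p = 0.000995). NRG1, a ligand of the ERBB receptors, averaged 714 ± 160 with TSA and 247 ± 65.2 without TSA (log2 change 1.54 ± 0.28, adjusted p = 0.00492), and MFSD2A, a transporter of lysophosphatidylcholine, 688 ± 153 with TSA and 275 ± 181 without TSA (log2 change 1.63 ± 0.35, adjusted p = 0.0118, lost without PJ-34/TSA). For all 3 genes every array with TSA was above every array without TSA. MIR1915HG, a host transcript of a microRNA, and IQGAP2, a scaffold protein, rose by 1.68 ± 0.25 and 1.39 ± 0.28 (lost without control). The tight junction gene CLDN11 averaged 218 with TSA and 35.8 without TSA, below the floor, and its call held in 2 of 8 fits. CLDN11 met the signal filter through the arrays with TSA alone, so its being tested was not independent of its increase. SKIDA1 averaged 219 with TSA and 39.4 without TSA, and its call held in 4 of 8.

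On the other side, IFITM1, an interferon-inducible membrane protein that hinders the entry of viruses, had signals of 521, 306, 1416 and 1058 with TSA, against 2537, 3060, 5658 and 6600 without TSA. It was lower with TSA in every pair, which its naming required, and the groups do not overlap. It was also higher in the arrays with 5-aza-dC of both groups (log2 change -2.56 ± 0.19, adjusted p = 2.31e-05). LEMD1, a cancer-testis protein with a LEM domain, had 443, 516, 555 and 618 with TSA, against 2612, 2422, 2438 and 2251 without TSA (log2 change -2.20 ± 0.17, adjusted p = 2.31e-05). Its 2 groups were far apart and the arrays within each of them close together. SERPINA3, a secreted protease inhibitor, had 61.1, 8.34, 106 and 160 with TSA, against 420, 472, 581 and 306 without TSA (log2 change -2.35 ± 0.41, adjusted p = 0.00442), and its groups do not overlap, with 1 array under 50.

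PTGDS, the lipocalin-type prostaglandin D synthase, had signals of 229, 71.3, 322 and 580 with TSA, against 422, 676, 1269 and 3027 without TSA. The groups overlap, with higher signals in the arrays with 5-aza-dC, but each array with TSA was below its partner, which its naming required (log2 change -2.12 ± 0.38, adjusted p = 0.00475). SERPINF1, a secreted inhibitor of angiogenesis, averaged 202 ± 176 with TSA and 885 ± 516 without TSA (log2 change -2.32 ± 0.32, adjusted p = 0.00108). The orphan nuclear receptor NR4A1 averaged 195 ± 155 with TSA and 575 ± 119 without TSA (log2 change -1.91 ± 0.41, adjusted p = 0.0124, lost without control or 5-aza-dC). C6orf141 averaged 346 ± 138 with TSA and 1393 ± 765 without TSA (log2 change -1.90 ± 0.26, adjusted p = 0.0011). TMEM178A, a membrane protein, averaged 47.9 ± 26.1 with TSA and 292 ± 105 without TSA (log2 change -2.25 ± 0.43, adjusted p = 0.00665), and 2 of the 4 TMEM178A arrays with TSA were under the floor. TMEM178A met the signal filter through the arrays without TSA alone, so its being tested was not independent of its decrease.

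**Figure D2:**
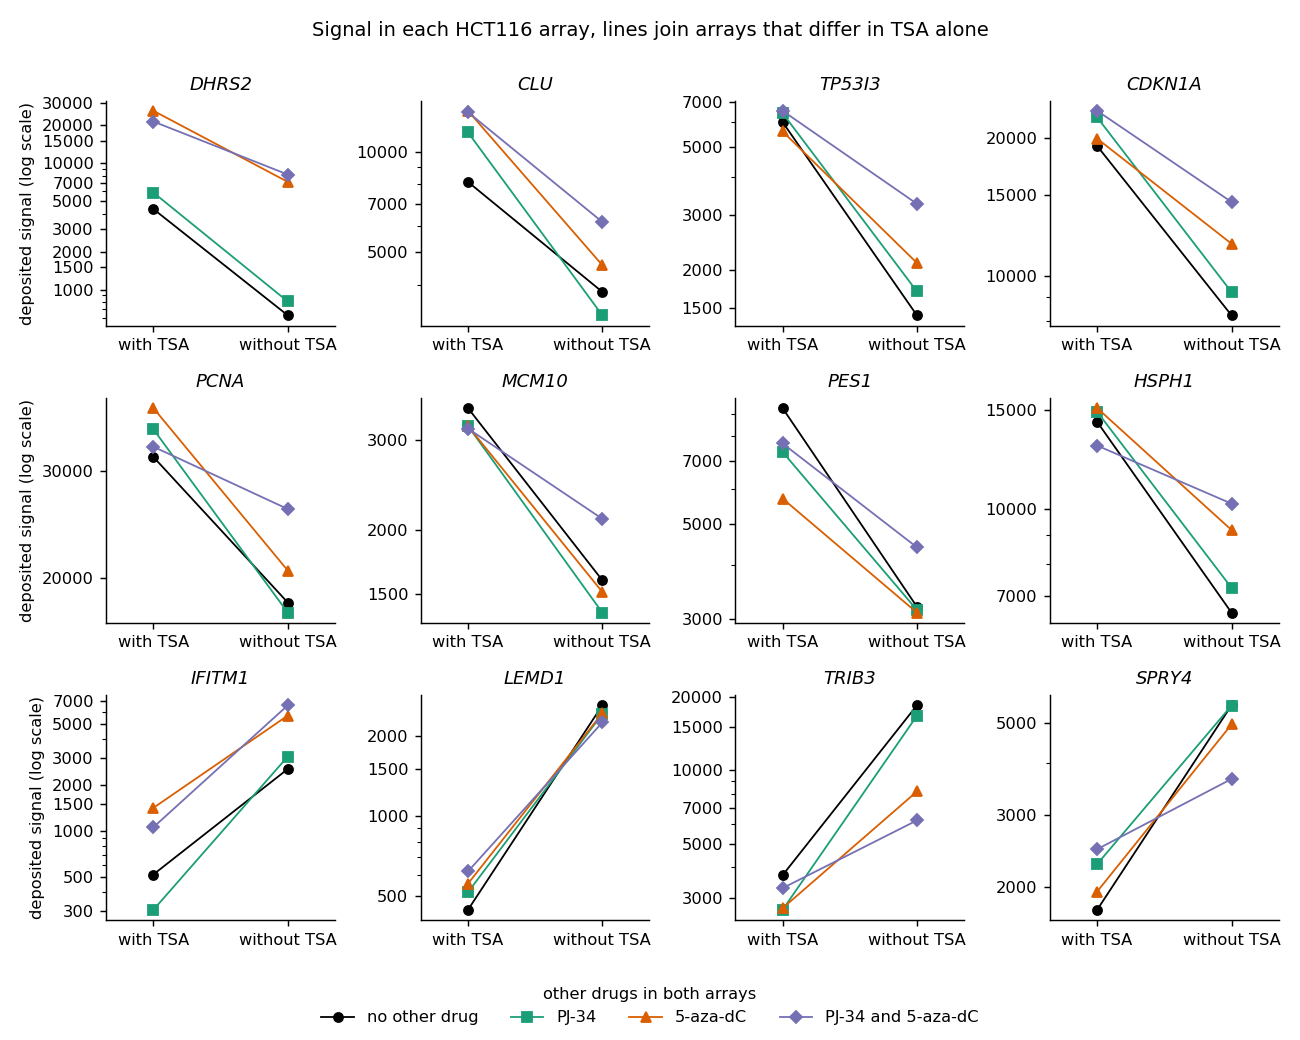
Deposited signal (vertical axis, log scale) of 12 genes in each HCT116 array, with TSA on the left of each panel and without TSA on the right. A line joins the 2 arrays that differ in TSA alone, and colour and symbol give the other drugs. All lines run downward to the right for the genes that rose and upward for IFITM1, LEMD1, TRIB3 and SPRY4. The groups overlap for DHRS2 alone of the 12.

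The genes of histone deacetylases and sirtuins, taken as 1 list, did not change past the test in the fit used here. None of the 18 genes passed (limma, with 3 at an unadjusted p under 0.05, and none under quantile normalization), and their median change was 0.00, against -0.03 over all genes. With the mean over the probe sets of a gene 1 fell, and with the pairs of conditions as a block 1 fell. HDAC1, a class I deacetylase of corepressor complexes, had signals of 27318, 24370, 22648 and 24292 with TSA, against 22436, 23165, 22690 and 30058 without TSA. The groups overlap (log2 change 0.01 ± 0.11, adjusted p = 0.966), and the array with PJ-34/5-aza-dC was the highest. HDAC2, the close relative of HDAC1, averaged 12668 ± 222 with TSA and 10907 ± 361 without TSA (log2 change 0.22 ± 0.09, adjusted p = 0.158), and HDAC3, the enzyme of the NCOR complex, 4760 ± 615 with TSA and 4020 ± 478 without TSA (log2 change 0.24 ± 0.12, adjusted p = 0.242). HDAC6, a cytoplasmic deacetylase of tubulin, averaged 1228 ± 235 with TSA and 1708 ± 41.8 without TSA (log2 change -0.50 ± 0.16, adjusted p = 0.067). It was past the test in 1 of the 8 fits that left out an array, the one without TSA alone. HDAC8 averaged 1211 ± 165 with TSA and 1501 ± 192 without TSA (log2 change -0.31 ± 0.15, adjusted p = 0.232).

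Of 26 tested subunits of the corepressor complexes that carry deacetylases, 4 fell (15.4%, against 6.13% of all genes) and none rose, with a median of -0.10. With the mean over the probe sets of a gene 1 rose and 1 fell. Under quantile normalization the median was -0.03. TBL1X, a subunit of the NCOR complex, fell by 0.71 ± 0.13 on the log2 scale (adjusted p = 0.00466), with 1 of its 6 probe sets past the test. ARID4B and ING1 of the SIN3 complex had changes of -0.67 and -0.65, and RCOR1 of the CoREST complex -0.51, calls that held in 4, 5 and 4 of the 8 fits. The count of 4 became 1 without the control or the PJ-34 array and 2 without 5-aza-dC or PJ-34/5-aza-dC/TSA. Among 23 histone acetyltransferases and readers of acetyl-lysine none passed (limma, 5 at an unadjusted p under 0.05, and none under quantile normalization), with 0.39 ± 0.15 for BRD9 and -0.45 ± 0.17 for TAF1, although 3 passed without the PJ-34/5-aza-dC array and 1 without TSA alone.

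Of 24 replication-dependent histone genes 1 rose and 2 fell, with a median of -0.07, which turned to 0.02 under quantile normalization. The median was -0.32 with only the arrays with 5-aza-dC and 0.23 with only those without it. H4C11 rose by 0.74 ± 0.22 (held in 1 of 8), and the linker histone genes H1-2 and H1-3 had changes of -0.60 and -1.85, which held in 2 and 3 of the 8 fits. H1-3 met the signal filter through the arrays without TSA alone, so its being tested was not independent of its decrease. Of 9 variant histone genes, the linker histone H1-10 averaged 2430 ± 312 with TSA and 3966 ± 315 without TSA (log2 change -0.71 ± 0.13, adjusted p = 0.00553) and passed in all 8 fits that left out 1 array. CENPA, the histone of centromeres, fell by 0.51 ± 0.14 on the log2 scale (held in 2 of 8), and MACROH2A1 rose by 0.44 ± 0.11 (held in 3 of 8) with 1 of its 5 probe sets, against a change of -0.01 for the mean over the 5.

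Of 22 genes listed as responding to HDAC inhibitors, 7 rose (31.8%, against 5.88% of all genes) and 3 fell (13.6%, against 6.13%). This list, like the others described here, was drawn up with results of these arrays known and is not independent evidence of its direction. The 7 were DHRS2, CLU, CDKN1A, CCND1, TUBB3 and the nucleotide synthesis genes CTPS1 and TYMS. The direction in which each gene is known to respond was not part of the count. The counts therefore do not show that a known response was repeated. KLF4, a factor of the differentiated gut epithelium, had signals of 3737, 4663, 4208 and 4560 with TSA, against 10962, 11950, 7966 and 6190 without TSA. It fell (log2 change -1.07 ± 0.16, adjusted p = 0.00162) with no overlap, and the lowest array without TSA was PJ-34/5-aza-dC. KLF6, a relative of KLF4, had a change of -0.64 ± 0.11, and GSN, the actin-severing protein gelsolin, -0.47 ± 0.13 (held in 3 of 8).

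Many p53 target genes rose. p53 is a transcription factor that damage and other stresses stabilise and that induces genes for cell cycle arrest, repair and cell death. Of 26 tested targets 14 rose (53.8%) and 1 fell (3.85%), with a median change of 0.63, and 12 to 15 rose when 1 array was left out. TP53I3, a quinone oxidoreductase, had signals of 6015, 6430, 5609 and 6540 with TSA, against 1422, 1699, 2101 and 3267 without TSA. The arrays with TSA differed little among themselves and lay above all arrays without TSA (log2 change 1.60 ± 0.16, adjusted p = 0.000215). MDM2, the ubiquitin ligase that degrades p53, had 6811, 11235, 10755 and 10275 with TSA, against 3621, 3274, 4897 and 4325 without TSA (log2 change 1.27 ± 0.14, adjusted p = 0.000352), and 7 of its 10 probe sets rose. CDKN1A had signals of 19191, 22142, 19906 and 22878 with TSA, against 8224, 9239, 11767 and 14498 without TSA. It rose 1.97-fold with no overlap between the groups (log2 change 0.98 ± 0.11, adjusted p = 0.000497), and the PJ-34/5-aza-dC array was the highest of those without TSA.

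PLK2, a kinase that p53 induces, averaged 11170 ± 1930 with TSA and 5185 ± 1683 without TSA (log2 change 1.15 ± 0.13, adjusted p = 0.000348), and TRIAP1, an inhibitor of cell death, 17307 ± 680 with TSA and 9270 ± 1333 without TSA (log2 change 0.91 ± 0.10, adjusted p = 0.000362). The death receptor gene FAS averaged 4343 ± 702 with TSA and 2137 ± 275 without TSA (log2 change 1.02 ± 0.14, adjusted p = 0.0013), with 4 of its 5 probe sets past the test, while BAX, the pore-forming protein of mitochondria, rose by 0.52 ± 0.12 (held in 4 of 8). The target that fell was GDF15, a secreted stress cytokine that the integrated stress response also induces. It averaged 21584 ± 4636 with TSA and 29187 ± 1904 without TSA (log2 change -0.46 ± 0.12, adjusted p = 0.0268, held in 4 of 8). Of 28 regulators of apoptosis 2 rose, which were FAS and BAX, and 1 fell, BIRC2, an inhibitor of caspases, at -0.49 ± 0.14 (held in 3 of 8). These are 7.14% and 3.57% of the list, near the 5.88% and 6.13% of all genes.

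Among 23 CDK inhibitors, cyclins and genes of the RB-E2F axis, 6 rose (26.1%) and 2 fell (8.7%), with a median of 0.37. Cyclins and CDKs drive the phosphorylation of RB, which frees E2F factors to induce genes of the S phase, and CDK inhibitors hold this back. CDKN1C, which codes for the CDK inhibitor p57, moved opposite to CDKN1A. It had signals of 972, 732, 1530 and 1295 with TSA, against 1986, 2149, 2980 and 4373 without TSA, and all 4 of its probe sets fell (log2 change -1.33 ± 0.16, adjusted p = 0.000604), with no overlap. CCND1, the cyclin D1 that acts before RB, had 11842, 14278, 13946 and 15850 with TSA, against 6256, 6895, 9118 and 9138 without TSA (log2 change 0.84 ± 0.10, adjusted p = 0.00051), also with no overlap. E2F2 and E2F3 rose by 0.95 ± 0.20 (lost without PJ-34 or 5-aza-dC) and 0.51 ± 0.13 (held in 3 of 8), and RBL2, the RB relative p130 of resting cells, had a change of -0.64 ± 0.15 (held in 3 of 8). The count of 6 became 3 without the control, 2 without PJ-34, 3 without 5-aza-dC or PJ-34/TSA, 4 without PJ-34/5-aza-dC/TSA and 10 without PJ-34/5-aza-dC, and that of 2 became 1 in 5 of these fits.

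DNA replication genes rose without an exception among those past the test. Of 41 tested genes 18 rose (43.9%) and none fell, 40 had a positive change, and the median was 0.44. The count was 7 to 9 without the control, PJ-34 or 5-aza-dC array and 28 without PJ-34/5-aza-dC. PCNA, the sliding clamp of the DNA polymerases, had signals of 31673, 35198, 38159 and 32933 with TSA, against 18184, 17498, 20542 and 25966 without TSA. It rose 1.7-fold with no overlap (log2 change 0.76 ± 0.11, adjusted p = 0.00133). FEN1, the nuclease that trims Okazaki fragments, had 13009, 14652, 12867 and 17180 with TSA, against 7221, 6154, 6391 and 10744 without TSA (log2 change 0.95 ± 0.13, adjusted p = 0.00134). MCM10, which helps to start the replicative helicase, had 3466, 3197, 3195 and 3160 with TSA, against 1596, 1380, 1514 and 2104 without TSA (log2 change 1.00 ± 0.15, adjusted p = 0.00155), and 2 of its 3 probe sets rose. For these 3 genes every array with TSA was above every array without TSA, and the highest of those without TSA was PJ-34/5-aza-dC. TYMS, the thymidylate synthase, averaged 53205 ± 2213 with TSA and 34957 ± 3107 without TSA (log2 change 0.61 ± 0.09, adjusted p = 0.00194).

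Many replication genes are known targets of E2F, so their promoters were searched for an E2F site. The motif was searched as TTTNNCGC on both strands in the RefSeq promoters (250 bases before to 50 bases after the gene start, GRCh38.p14), a form chosen after a narrower one had been tried. It was found in 19 of 35 replication genes with a promoter (54.3%), in 10 of the 15 of these that rose (66.7%) and in 1884 of all 27305 promoters (6.9%). Since the list holds many known E2F targets, its excess over all promoters says nothing about TSA. The genes that rose were not tested against the rest of the list. The motif was in the window of PCNA and not in those of FEN1 and MCM10, which says nothing about the factor. The promoter of PCNA is shown as the one of these 3 genes with a match. It lies at chr20:5126573-5126872 on the minus strand, with the match in capitals on the opposite strand of the gene, starting 59 bases before the gene start.
PCNA: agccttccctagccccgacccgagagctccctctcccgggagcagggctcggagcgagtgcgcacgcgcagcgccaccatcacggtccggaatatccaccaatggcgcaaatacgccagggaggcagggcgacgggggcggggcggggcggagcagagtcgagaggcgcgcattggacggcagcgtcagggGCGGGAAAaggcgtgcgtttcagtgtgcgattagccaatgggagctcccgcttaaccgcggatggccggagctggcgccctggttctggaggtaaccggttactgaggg

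Of 30 mitosis genes 5 rose (16.7%) and 1 fell, with a median of 0.25. PLK1, a mitotic kinase, averaged 4175 ± 357 with TSA and 2702 ± 234 without TSA (log2 change 0.63 ± 0.12, adjusted p = 0.00762, lost without 5-aza-dC), and CCNB1, the cyclin of mitotic entry, 23242 ± 1582 with TSA and 15834 ± 2914 without TSA (log2 change 0.57 ± 0.11, adjusted p = 0.00753, lost without 5-aza-dC). CDC20, the activator of the anaphase-promoting complex, and the kinase AURKA rose by 0.58 ± 0.13 (lost without control, PJ-34 or 5-aza-dC) and 0.43 ± 0.12 (held in 2 of 8). None of the 30 rose without the 5-aza-dC array and 11 without PJ-34/5-aza-dC. Among 27 genes of homologous recombination and the Fanconi pathway 2 rose (7.41%) and 3 fell (11.1%), against 5.88% and 6.13% of all genes. EXO1, a nuclease that resects ends, rose by 0.62 ± 0.13 (lost without control, PJ-34 or 5-aza-dC). The kinase ATM, MRE11 of its activating complex and FANCL had changes of -1.02 ± 0.27 (held in 3 of 8), -0.78 ± 0.21 (held in 2 of 8) and -0.59 ± 0.16 (held in 2 of 8).

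Most genes of the integrated stress response fell. In this response kinases that sense lack of amino acids, misfolded proteins or haem phosphorylate the initiation factor eIF2, and the transcription factors ATF4, CEBPB and others then induce genes for amino acid synthesis, uptake and the charging of tRNAs. Of 25 tested genes 16 fell (64%) and none rose, 1 had a positive change, and the median was -0.98. With 1 array left out the count was 10 to 17, with 10 without the control or the PJ-34 array. TRIB3, a pseudokinase that ATF4 induces, had signals of 3708, 2676, 2717 and 3283 with TSA, against 18422, 16688, 8173 and 6222 without TSA. The 4 arrays with TSA were close together, and those without TSA were all higher and spread widely, the control and PJ-34 being the highest (log2 change -1.87 ± 0.21, adjusted p = 0.000352).

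CHAC1, an enzyme that degrades glutathione, had 489, 467, 436 and 512 with TSA, against 2120, 2030, 1244 and 1025 without TSA (log2 change -1.69 ± 0.21, adjusted p = 0.000617). ASNS, the asparagine synthetase, named after its values were seen, had 12488, 10531, 10296 and 11526 with TSA, against 52340, 57366, 27030 and 17832 without TSA (log2 change -1.63 ± 0.21, adjusted p = 0.000647). CEBPB, a transcription factor of the response, had 10030, 7725, 8711 and 11177 with TSA, against 21020, 21167, 17779 and 19397 without TSA (log2 change -1.09 ± 0.12, adjusted p = 0.000371). In none of the 3 did the groups overlap. For CHAC1 and ASNS the arrays with 5-aza-dC were the lower ones among those without TSA, whereas the 4 CEBPB arrays without TSA lay close together. PCK2, the mitochondrial PEP carboxykinase, averaged 1219 ± 83.7 with TSA and 3617 ± 1479 without TSA (log2 change -1.47 ± 0.19, adjusted p = 0.000639).

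The response element of ATF4 with C/EBP factors was searched as TGATGNAA on both strands of the same windows. It was found in 3 of 21 genes of the response with a promoter (14.3%), 2 of the 15 that fell (13.3%) and 1003 of all promoters (3.67%). Since the list was built from genes of this response, the difference from all promoters says nothing about TSA. CHAC1 and TRIB3 are shown as the genes of the list with large decreases, of which CHAC1 held a match, in capitals, 209 bases before its start and in the orientation of the opposite strand, and TRIB3 none. The window of CHAC1 is chr15:40953221-40953520 and that of TRIB3 chr20:381045-381344, both on the plus strand.
CHAC1: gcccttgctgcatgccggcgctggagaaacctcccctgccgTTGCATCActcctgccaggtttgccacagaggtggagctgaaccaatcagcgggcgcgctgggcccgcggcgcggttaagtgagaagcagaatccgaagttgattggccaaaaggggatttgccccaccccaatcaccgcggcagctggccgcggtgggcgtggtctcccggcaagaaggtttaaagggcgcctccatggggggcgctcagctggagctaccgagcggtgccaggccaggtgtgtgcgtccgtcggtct
TRIB3: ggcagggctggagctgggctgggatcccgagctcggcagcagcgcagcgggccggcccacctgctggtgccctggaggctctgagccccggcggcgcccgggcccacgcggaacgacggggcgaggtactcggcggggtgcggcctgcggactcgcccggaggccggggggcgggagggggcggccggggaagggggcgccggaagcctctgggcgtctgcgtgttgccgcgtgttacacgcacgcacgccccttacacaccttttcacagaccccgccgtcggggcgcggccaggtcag

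Amino acid transporters were more mixed, with 3 of 21 past the test (14.3%, against 6.13% of all genes), all downward, and a median of -0.28. With the mean over the probe sets of a gene 2 rose and 2 fell, and under quantile normalization 1 rose and 3 fell. SLC7A11, the cystine importer, had signals of 1689, 2749, 2044 and 1508 with TSA, against 13522, 13452, 4742 and 1891 without TSA. It fell (log2 change -1.71 ± 0.34, adjusted p = 0.00817, lost without control) in all 3 of its probe sets, but the groups overlap, since the PJ-34/5-aza-dC array lay within the range of the arrays with TSA. SLC38A2, a sodium-coupled importer of neutral amino acids, averaged 40797 ± 3230 with TSA and 59977 ± 6339 without TSA (log2 change -0.55 ± 0.09, adjusted p = 0.00235). SLC7A1, the importer of cationic amino acids, had a change of -0.44 ± 0.13 (held in 3 of 8). The count of 3 became 1 without the control and 5 without PJ-34/5-aza-dC.

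The cytosolic tRNA synthetases were divided, with 5 of 17 down and 4 up. AARS1, which charges the tRNA of alanine, had signals of 8659, 5966, 5381 and 6671 with TSA, against 20987, 18104, 12984 and 10276 without TSA. It fell with no overlap (log2 change -1.19 ± 0.14, adjusted p = 0.00051), the arrays with 5-aza-dC being lower than the control and PJ-34 in the group without TSA. CARS1 for cysteine averaged 19995 ± 1512 with TSA and 36259 ± 4824 without TSA (log2 change -0.85 ± 0.11, adjusted p = 0.000676), and SARS1 for serine and GARS1 for glycine had changes of -0.57 ± 0.13 (lost without control, PJ-34 or PJ-34/TSA) and -0.54 ± 0.12 (lost without control, PJ-34 or PJ-34/TSA). FARSA, a subunit of the enzyme for phenylalanine, had 5182, 4626, 4398 and 5610 with TSA, against 2775, 2384, 2736 and 3985 without TSA and rose (log2 change 0.76 ± 0.15, adjusted p = 0.00676), with no overlap. Its partner FARSB, HARS1 for histidine and RARS1 for arginine rose by 0.40 to 0.45 (held in 2 to 4 of 8). The 5 lower genes became 2 without the control, PJ-34 or PJ-34/TSA array, and the 4 higher ones 1 without the control, PJ-34 or 5-aza-dC and 2 without TSA, PJ-34/TSA or PJ-34/5-aza-dC/TSA.

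Of the cytosolic heat shock protein genes 9 of 18 (50%) rose and none fell, with a median of 0.44. Most of the proteins of this list are chaperones of the cytosol, and the factor HSF1 induces many genes of this kind. HSPH1, a nucleotide exchange factor of HSP70, had signals of 14285, 14883, 15111 and 12964 with TSA, against 6552, 7252, 9182 and 10226 without TSA. All arrays with TSA were higher (log2 change 0.81 ± 0.12, adjusted p = 0.00208), and among those without TSA the 2 with 5-aza-dC were the higher ones. HSPA4L, a relative of HSPH1, averaged 3451 ± 493 with TSA and 1907 ± 493 without TSA (log2 change 0.88 ± 0.15, adjusted p = 0.00411), STIP1, which links HSP70 to HSP90, 16788 ± 1001 with TSA and 10658 ± 2926 without TSA (log2 change 0.69 ± 0.13, adjusted p = 0.00645), and HSPE1, which is in the list although it is the cofactor of the mitochondrial chaperonin, 35390 ± 3182 with TSA and 23793 ± 1778 without TSA (log2 change 0.57 ± 0.10, adjusted p = 0.00411). The count of 9 became 4 without the control, PJ-34 or PJ-34/TSA array, 5 without 5-aza-dC and 6 without PJ-34/5-aza-dC/TSA.

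Chaperones of the endoplasmic reticulum did not move as one, with 3 of 20 up, 2 down and a median of 0.05 that turned to -0.01 under quantile normalization. SDF2L1 averaged 6345 ± 243 with TSA and 3902 ± 1334 without TSA (log2 change 0.76 ± 0.15, adjusted p = 0.00822, lost without control), and CALR, the lectin chaperone calreticulin, 8206 ± 1067 with TSA and 5351 ± 1963 without TSA (log2 change 0.67 ± 0.14, adjusted p = 0.0117, lost without control, PJ-34 or 5-aza-dC). HERPUD1, which helps to remove misfolded proteins and is induced by the unfolded protein response, averaged 9859 ± 408 with TSA and 14555 ± 999 without TSA (log2 change -0.56 ± 0.10, adjusted p = 0.00392) and was the one of the list that fell in all 8 fits without 1 array. DNAJB9, another gene of that response, had a change of -0.52 ± 0.14 (held in 2 of 8).

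Of the ribosome biogenesis genes 13 of 23 (56.5%) rose and none fell, with a median of 0.48. PES1, which is needed to make the large subunit, had signals of 9268, 7335, 5718 and 7673 with TSA, against 3208, 3154, 3109 and 4406 without TSA. It rose 2.15-fold with no overlap (log2 change 1.11 ± 0.15, adjusted p = 0.0012), and PJ-34/5-aza-dC stood above the other arrays without TSA. RRS1, another factor of the large subunit, averaged 6336 ± 817 with TSA and 3768 ± 197 without TSA (log2 change 0.74 ± 0.11, adjusted p = 0.00188), and GAR1 and NHP2, proteins of the particles that modify ribosomal RNA, rose by 0.50 ± 0.10 (lost without PJ-34) and 0.53 ± 0.11 (lost without control, PJ-34 or 5-aza-dC). The number that rose ran between 2 (without PJ-34) and 16 (without PJ-34/5-aza-dC) and was 3 without the control and 4 without 5-aza-dC or PJ-34/5-aza-dC/TSA, so the count of this list depended strongly on single arrays, whereas the change was in the same direction in 21 of 23 genes. The proteins of the ribosome itself differed from this, with none of 20 genes past the test (limma, none at an unadjusted p under 0.05, and none under quantile normalization) and a median of -0.11, which was -0.00 under quantile normalization. RPL3 averaged 109460 ± 7161 with TSA and 123900 ± 8236 without TSA and RPL32 90857 ± 3693 with TSA and 102850 ± 9812 without TSA.

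**Figure D3:**
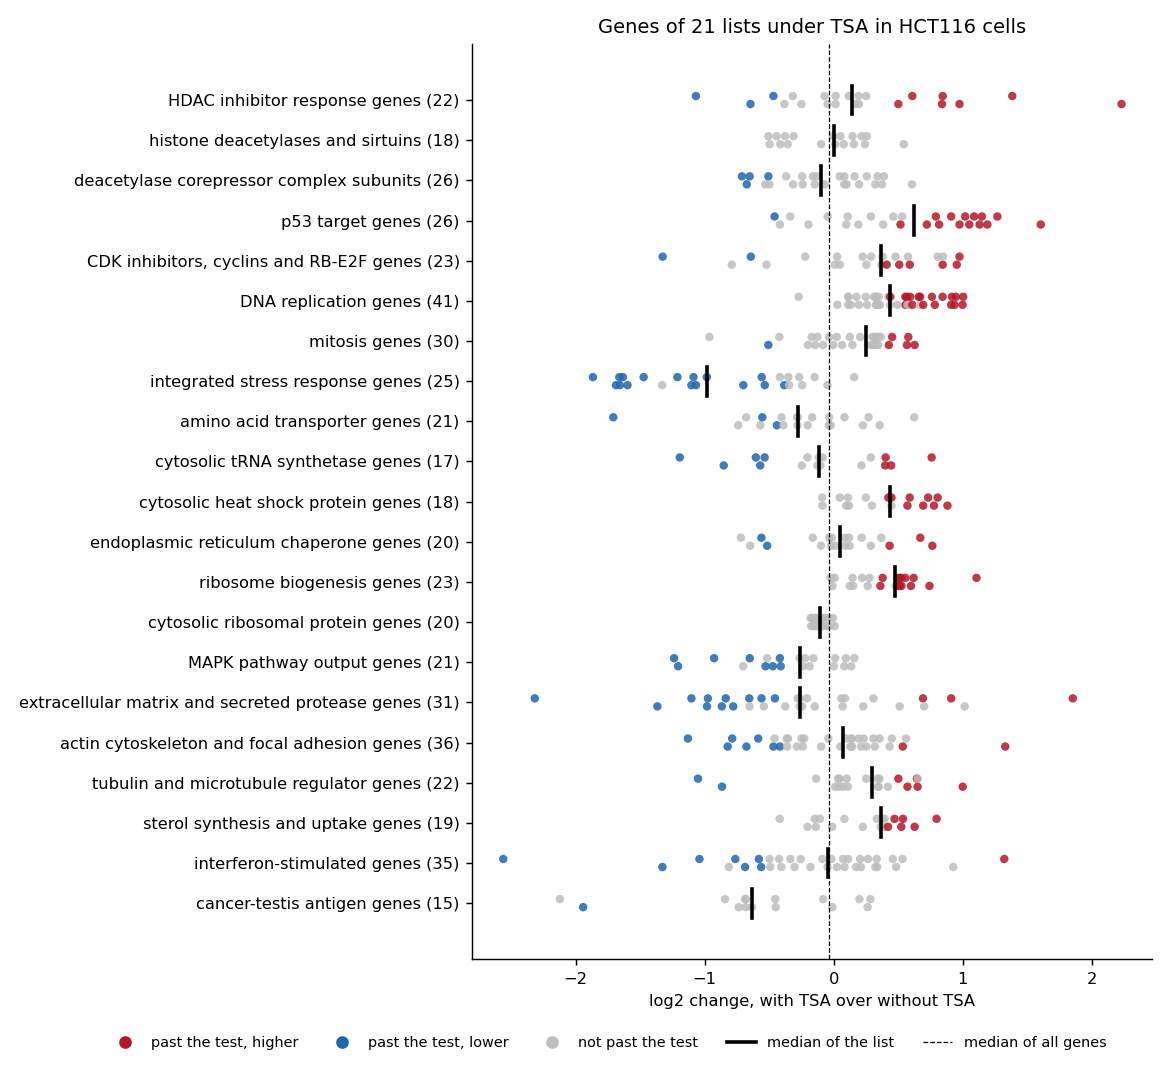
Change under TSA in HCT116 cells (horizontal axis, log2 of the signal with TSA over that without TSA) of each tested gene of 21 lists, with the number of genes in parentheses. Red points rose and blue points fell past the test, grey points did not pass, black bars are the medians of the lists and the dashed line is the median of all genes. The p53, DNA replication, heat shock and ribosome biogenesis genes lie mainly to the right of 0, and the integrated stress response genes to the left.

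Several genes that the MAPK pathway induces fell. This pathway carries growth factor signals to the nucleus, and its output includes early transcription factors and inhibitors that feed back on it. Of 21 genes 8 fell (38.1%), none rose, and the median was -0.26, with 5 to 9 falling when 1 array was left out, 5 without the control, PJ-34, 5-aza-dC or PJ-34/5-aza-dC/TSA. SPRY4, a feedback inhibitor of receptor tyrosine kinases, had signals of 1766, 2277, 1954 and 2474 with TSA, against 5515, 5507, 4957 and 3659 without TSA. It fell with no overlap (log2 change -1.21 ± 0.16, adjusted p = 0.000759), and PJ-34/5-aza-dC was the lowest array without TSA. EGR1, an immediate early transcription factor, had 12702, 21316, 16350 and 25648 with TSA, against 38051, 50822, 63453 and 28580 without TSA (log2 change -1.24 ± 0.23, adjusted p = 0.00576), with a wide spread in both groups but no overlap. It passed in 1 of 3 probe sets. DUSP5, a phosphatase of ERK, averaged 2556 ± 448 with TSA and 4817 ± 338 without TSA (log2 change -0.93 ± 0.13, adjusted p = 0.00104), and IER3, another early gene, 47856 ± 5342 with TSA and 68827 ± 4537 without TSA (log2 change -0.53 ± 0.09, adjusted p = 0.00489).

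Targets of Wnt and of TGF-beta and BMP signals showed no common direction. Of 15 Wnt targets 3 rose and 1 fell. AXIN2, the negative regulator of beta-catenin that Wnt induces, averaged 1540 ± 188 with TSA and 719 ± 263 without TSA (log2 change 1.16 ± 0.19, adjusted p = 0.0031), with 1 of its 4 probe sets past the test. CCND1 was among the 3, and SOX9, a factor of the crypt, had a change of -0.40 ± 0.09 (held in 3 of 8). BMP4, a ligand of the BMP receptors, had signals of 4173, 4704, 5107 and 4262 with TSA, against 1868, 1850, 2355 and 2603 without TSA. It rose 2.12-fold with no overlap (log2 change 1.08 ± 0.13, adjusted p = 0.00051). BAMBI, a decoy receptor, rose by 0.72 ± 0.15 (held in 4 of 8), and ID1, a target of BMP signals, and SKIL, a repressor of TGF-beta signals, had changes of -0.43 ± 0.09 (lost without control, PJ-34 or PJ-34/TSA) and -1.06 ± 0.22 (lost without control, PJ-34 or PJ-34/5-aza-dC/TSA).

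In the extracellular matrix list 11 of 31 genes fell (35.5%) and 3 rose (9.68%), with a median of -0.26. LOXL2, which cross-links collagen, had signals of 1037, 1130, 2078 and 1844 with TSA, against 2725, 2575, 3525 and 3859 without TSA. It fell with no overlap (log2 change -1.10 ± 0.14, adjusted p = 0.000606), and 5-aza-dC was associated with higher signals in both groups. COL1A1, a chain of the fibrillar collagen of connective tissue, averaged 920 ± 377 with TSA and 2311 ± 817 without TSA (log2 change -1.37 ± 0.22, adjusted p = 0.00249), and COL6A1, of a collagen that forms fine filaments, 3259 ± 623 with TSA and 5826 ± 2178 without TSA (log2 change -0.78 ± 0.13, adjusted p = 0.00293). Past the test were 2 of 5 COL1A1 probe sets and 2 of 7 COL6A1 probe sets. Those that rose were CEMIP, SERPINB5 (maspin), at 8254 ± 840 with TSA and 4628 ± 1811 without TSA (log2 change 0.91 ± 0.15, adjusted p = 0.0031), and COL12A1 with 0.69 ± 0.16 (1 of 4 probe sets, lost without control, PJ-34/TSA or PJ-34/5-aza-dC/TSA). Between 7 and 13 genes of the list fell with 1 array left out, 7 of them without the control. The summed fibroblast markers given above were also lower with TSA, with no overlap, but the sum includes COL1A1, which is in this list too. COL1A1 ran between 491 and 1406 with TSA and between 1714 and 3518 without TSA, whereas every other marker of the sum overlapped between the groups. The part of the fibroblast markers in this result was not tested.

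Genes of focal adhesions and of the actin cytoskeleton were lower in 7 of 36 cases (19.4%) and higher in 2, with a median of 0.07 and 19 of 36 changes positive. ITGA2, the integrin subunit that binds collagen, had signals of 2525, 2879, 4120 and 3442 with TSA, against 7127, 6808, 8027 and 6067 without TSA. It fell with no overlap (log2 change -1.13 ± 0.13, adjusted p = 0.00051). ITGB4 of the hemidesmosome averaged 4944 ± 999 with TSA and 7868 ± 1332 without TSA (log2 change -0.68 ± 0.10, adjusted p = 0.00147), ITGA5 of the fibronectin receptor 780 ± 189 with TSA and 1354 ± 153 without TSA (log2 change -0.82 ± 0.17, adjusted p = 0.0096, lost without control or PJ-34), and CAPG, which caps actin filaments, had a change of -0.59 ± 0.13 (lost without control or PJ-34/TSA). CCN2, a matricellular protein, rose by 1.33 ± 0.29 (lost without control or PJ-34/TSA). The other gene that rose was TPM2, a tropomyosin, by 0.54 ± 0.13 (held in 4 of 8) with 1 probe set, against a change of -0.03 for the mean over its probe sets. The 7 became 2 without the control, 3 without PJ-34 or PJ-34/TSA and 4 without 5-aza-dC.

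Of 22 genes of tubulins and microtubule regulators 5 rose and 2 fell, with a median of 0.30. TUBB6, a beta-tubulin, had signals of 17064, 15512, 20841 and 22651 with TSA, against 9355, 8408, 15270 and 17416 without TSA. It rose (log2 change 0.64 ± 0.11, adjusted p = 0.00471), and each array with TSA was above its partner, but it was also higher in the arrays with 5-aza-dC and the groups overlap. TUBA4A, an alpha-tubulin, averaged 4541 ± 606 with TSA and 2373 ± 923 without TSA (log2 change 1.00 ± 0.19, adjusted p = 0.00629), and the beta-tubulins TUBB4B and TUBB rose by 0.65 ± 0.14 (lost without control or PJ-34) and 0.57 ± 0.13 (lost without control, PJ-34 or 5-aza-dC). MAP1B, which stabilises the microtubules of neurons, averaged 1070 ± 227 with TSA and 2210 ± 396 without TSA (log2 change -1.05 ± 0.18, adjusted p = 0.00441). Tubulin paralogs share sequence, so their probe sets may share signal. The number that rose became 2 without the control or PJ-34, 3 without 5-aza-dC and 12 without PJ-34/5-aza-dC.

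Epithelial genes were divided. KRT8, the keratin of simple epithelia, had signals of 26905, 25812, 30369 and 35261 with TSA, against 11939, 13168, 17868 and 23786 without TSA. It rose 1.83-fold with no overlap (log2 change 0.87 ± 0.11, adjusted p = 0.000689). CDH1, the cadherin of epithelial junctions, averaged 6187 ± 655 with TSA and 8939 ± 1239 without TSA (log2 change -0.53 ± 0.12, adjusted p = 0.0136, lost without control, PJ-34/TSA or PJ-34/5-aza-dC/TSA), the tight junction gene CLDN3 857 ± 146 with TSA and 1570 ± 160 without TSA (log2 change -0.88 ± 0.16, adjusted p = 0.00598), and ESRP1, a splicing factor of epithelial cells, 6754 ± 745 with TSA and 11915 ± 3455 without TSA (log2 change -0.78 ± 0.12, adjusted p = 0.00206). These 3 fell. Of the 22 colon epithelium genes that passed the filter 2 rose (9.09%) and 3 fell (13.6%), against 5.88% and 6.13% of all genes. With so few genes, these counts are not far from those shares.

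Interferon-stimulated genes fell more often than they rose, 7 of 35 (20%) against 1. Of the 7, 3 were IFITM genes: IFITM2 averaged 23344 ± 3453 with TSA and 34688 ± 2766 without TSA (log2 change -0.58 ± 0.11, adjusted p = 0.00621) and IFITM3 26718 ± 4216 with TSA and 39185 ± 3155 without TSA (log2 change -0.56 ± 0.12, adjusted p = 0.0106, lost without 5-aza-dC or PJ-34/TSA), beside the larger fall of IFITM1. The IFITM genes are similar in sequence, so signal may be shared among them. ISG20, an exonuclease, averaged 546 ± 71.1 with TSA and 1122 ± 135 without TSA (log2 change -1.04 ± 0.18, adjusted p = 0.00444), while TRIM22, an antiviral ubiquitin ligase, averaged 431 ± 136 with TSA and 181 ± 72.5 without TSA and rose by 1.32 ± 0.36 (held in 3 of 8). Between 4 and 8 genes fell when 1 array was left out, 4 without 5-aza-dC or PJ-34/TSA. The median of the list, -0.05, turned to 0.03 under quantile normalization. Among 20 antigen presentation genes, PSMB10, a subunit of the immunoproteasome, had signals of 3316, 2656, 2456 and 2577 with TSA, against 876, 889, 1278 and 1480 without TSA. It rose 2.48-fold with no overlap (log2 change 1.31 ± 0.18, adjusted p = 0.00122). HLA-E, a nonclassical class I molecule, averaged 8135 ± 628 with TSA and 11717 ± 2274 without TSA (log2 change -0.51 ± 0.12, adjusted p = 0.0203, held in 4 of 8), in 3 of 3 probe sets, and the median of the list was -0.29.

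In metabolism, sterol synthesis and uptake genes leaned upward, with 6 of 19 (31.6%) up, none down and a median of 0.36, but the call was fragile. None of the 19 passed without the control, PJ-34 or 5-aza-dC array and 10 rose without PJ-34/5-aza-dC. NSDHL, EBP, ACAT2 and MSMO1, enzymes of cholesterol synthesis, rose by 0.80, 0.63, 0.52 and 0.42 (calls that held in 4, 5, 3 and 2 of 8 fits), and 1 to 3 of the 19 rose without PJ-34/TSA, 5-aza-dC/TSA or the array with all 3 drugs. In fatty acid synthesis 3 of 17 genes fell, which were ACSL5, a ligase of long-chain fatty acids, at 8957 ± 845 with TSA and 14564 ± 2757 without TSA (log2 change -0.69 ± 0.10, adjusted p = 0.00134), SREBF1, the regulator of lipogenesis, with -0.62 ± 0.16 (lost without control, PJ-34 or PJ-34/TSA), and ACSS2, which makes acetyl-CoA from acetate, with -0.75 ± 0.21 (held in 3 of 8).

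Hypoxia response genes changed in both directions, 3 of 22 up and 4 down. ADM, the vasodilator adrenomedullin, had signals of 9974, 15273, 13527 and 14030 with TSA, against 5831, 6832, 4963 and 6640 without TSA. It rose 2.17-fold with no overlap (log2 change 1.12 ± 0.12, adjusted p = 0.000237). SLC2A1, the glucose transporter GLUT1, averaged 13269 ± 3676 with TSA and 8060 ± 4895 without TSA (log2 change 0.88 ± 0.16, adjusted p = 0.00609), and PFKFB3, a regulator of glycolysis, rose by 0.54 ± 0.12 (lost without control, PJ-34 or 5-aza-dC). VEGFA, the growth factor of vessels, which ATF4 also induces, averaged 3067 ± 232 with TSA and 6712 ± 2417 without TSA (log2 change -1.05 ± 0.19, adjusted p = 0.00482), but not all of its probe sets passed. NDRG1 averaged 4751 ± 741 with TSA and 7945 ± 559 without TSA (log2 change -0.75 ± 0.11, adjusted p = 0.00157), and BNIP3L and KDM3A had changes of -0.47 and -0.49 (each held in 3 of 8). ALDOC, a glycolytic aldolase, averaged 1359 ± 184 with TSA and 3010 ± 406 without TSA (log2 change -1.15 ± 0.15, adjusted p = 0.000892). Of 23 NRF2 target and glutathione genes 4 rose and 1 fell. GCLM, the regulatory subunit of the first enzyme of glutathione synthesis, averaged 6068 ± 900 with TSA and 3080 ± 214 without TSA (log2 change 0.97 ± 0.13, adjusted p = 0.00079), HMOX1, the haem oxygenase, rose by 0.83 ± 0.18 (held in 4 of 8), and the export pump ABCC3 averaged 1307 ± 149 with TSA and 3287 ± 996 without TSA (log2 change -1.29 ± 0.19, adjusted p = 0.00138), with all 4 of its probe sets past the test.

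The remaining lists held few genes past the test, where 5.88% of all genes rose and 6.13% fell. Of 27 lysosome and autophagy genes 2 rose and 2 fell, among them CTSB, the cathepsin B, at 11516 ± 2174 with TSA and 16928 ± 3545 without TSA (log2 change -0.55 ± 0.11, adjusted p = 0.00822, lost without control), and MAP1LC3B, the LC3B of autophagosomes, with -0.62 ± 0.15 (held in 4 of 8). Of 25 genes of the respiratory chain 1 rose, NDUFV2 with 0.34 ± 0.09 (held in 2 of 8), 21 had a positive change, and 6 rose without PJ-34/5-aza-dC. Of 17 glycolysis genes PGAM1 rose, a call that held in 3 of 8 fits, and ALDOC fell. Of 25 neuronal genes that REST represses 1 rose, TUBB3, whose adjusted p was at the threshold and whose call held in 2 of 8 fits, and 1 fell, SYT1, with -0.51 ± 0.13 (held in 4 of 8). None of 9 metallothionein and zinc genes passed (limma, none at an unadjusted p under 0.05, and none under quantile normalization). Among 11 blood-lineage genes and 4 endothelial genes that passed the filter none was past the test either (limma, 2 and 0 at an unadjusted p under 0.05, and none under quantile normalization). Of 14 fibroblast and mesenchyme genes COL1A1 and COL6A3 fell, the second with overlapping groups and a call that held in 1 of 8 fits. At most 1 gene of the metallothionein, blood or ribosomal protein lists passed when an array was left out, which was each time the array with TSA alone.

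The size of the TSA effect was compared between the 4 pairs of arrays that differ in TSA alone. The genes that rose had a median log2 difference of 0.74 for TSA over the control, 0.64 with PJ-34 on both sides, 0.58 with 5-aza-dC and 0.38 with both drugs, and those that fell -0.88, -0.78, -0.67 and -0.58. These genes were called with all 4 pairs, so their direction is no finding. The interaction of TSA with 5-aza-dC was past the test for 0.0% of the probe sets (limma, where 1902 had an unadjusted p under 0.05 and the lowest adjusted p was 0.44), and that with PJ-34 likewise for 0.0% (970 unadjusted, lowest adjusted p = 1.0). Under quantile normalization none passed for either. When 1 array was left out at most 2 and 3 probe sets did. A p that misses the threshold does not show that TSA acted alike with and without the other drugs.

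The integrated stress response genes had a median difference of -1.01 for TSA over the control, -1.10 with PJ-34, -0.69 with 5-aza-dC and -0.42 with both. For ASNS the interaction term with 5-aza-dC was 1.25 (unadjusted p = 0.00022), for TRIB3 1.22 (0.00038) and for SLC7A11 1.88 (0.0014), which did not pass after adjustment. The DNA replication genes ran between 0.70 for TSA over the control and 0.21 with both other drugs, and the heat shock genes between 0.80 and 0.14. In each of these lists the pair with both drugs, whose array without TSA is PJ-34/5-aza-dC, had the smallest difference. For the matrix genes the 4 pairs were alike, between -0.45 and -0.36.

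Cancer-testis antigen genes, which DNA methylation silences in somatic cells, had medians of 0.10 for TSA over the control and 0.41 with PJ-34, but -0.93 with 5-aza-dC and -1.61 with both. Of the 15 genes 1 fell in the fit of all 8 arrays, and 9 fell when only the 4 arrays with 5-aza-dC were used, against none when only the 4 without it were used, in which 2 rose. Over all genes, 489 rose and 625 fell with only the arrays with 5-aza-dC, and 1223 and 1258 with only those without it. Each of these smaller fits compared 2 arrays with TSA and 2 without TSA, so it estimated the spread poorly. The interaction of TSA with 5-aza-dC was past the test for no probe set. The gene that fell in the fit of all 8 arrays was TKTL1, a transketolase-like protein, with signals of 46.6, 37.1, 5595 and 1478 with TSA, against 41.3, 116, 28199 and 27676 without TSA. A second TKTL1 probe set was not past the test (log2 change -0.98, adjusted p = 0.427). With the mean over the probe sets of a gene, 0 of the 15 genes fell. By the signals given, TKTL1 was near or below the floor in most arrays without 5-aza-dC and high with 5-aza-dC, where the 2 arrays with TSA were lower than the 2 without TSA (log2 change -1.94 ± 0.50, adjusted p = 0.0281, held in 4 of 8). H1-2 and PRF1, which codes for perforin, showed a like order: PRF1 had 1793, 1530, 14382 and 11209 with TSA, against 1516, 1559, 22301 and 27260 without TSA and was not past the test (log2 change -0.42 ± 0.19, adjusted p = 0.181).

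**Figure D4:**
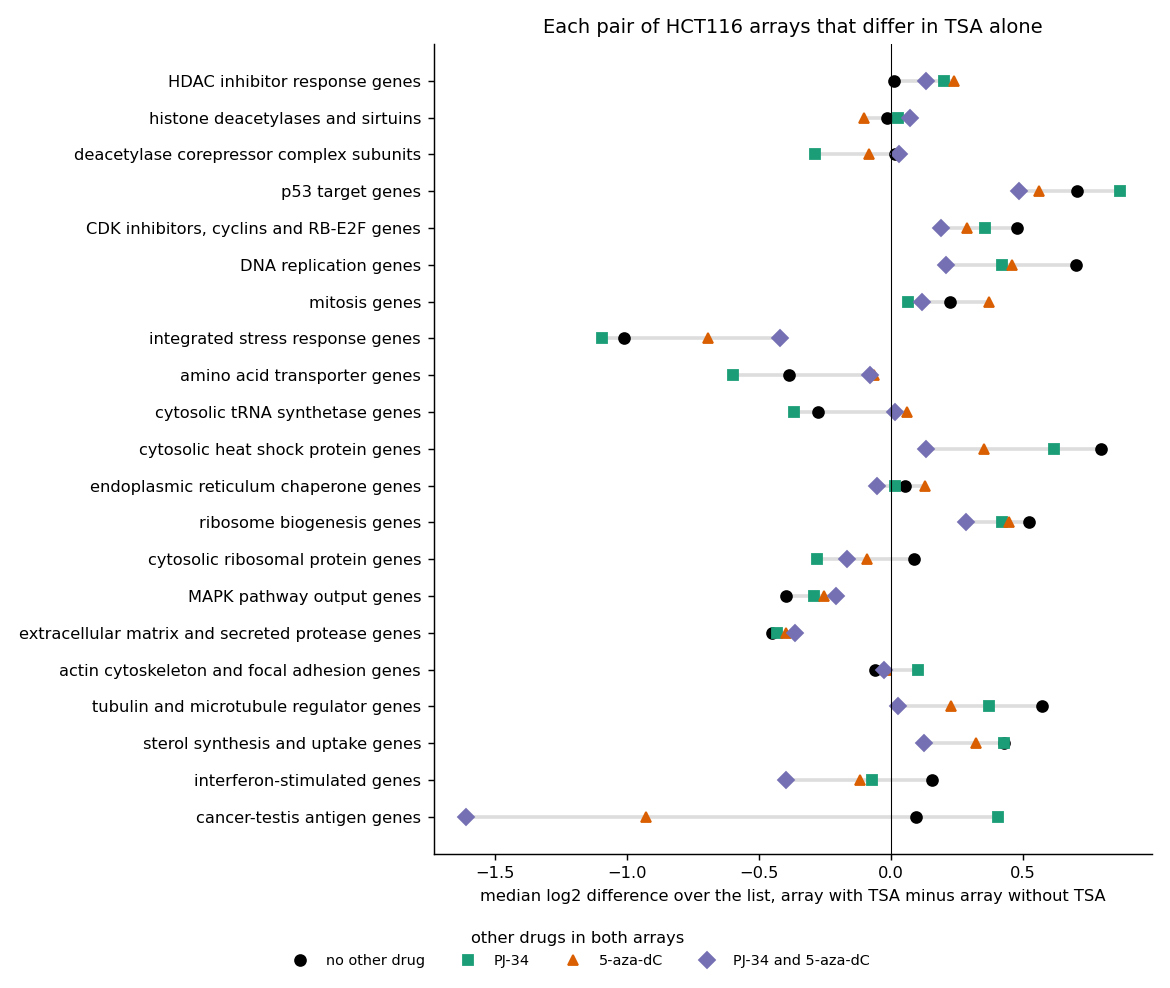
Median log2 difference of the genes of each list (horizontal axis) in the 4 pairs of HCT116 arrays that differ in TSA alone, as the array with TSA minus its partner without TSA, for the same 21 lists. Symbols give the other drugs in both arrays of the pair. The 4 symbols lie on the same side of 0 for the p53, replication, integrated stress response and matrix genes, and the cancer-testis antigen genes are above 0 without 5-aza-dC and below 0 with it.

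RKO cells received the same 150 nM TSA. In RKO, the array labelled PJ-34 and the one labelled PJ-34/5-aza-dC, both without TSA, go against their labels: TPM2 was high in every other RKO array with 5-aza-dC and had signals of 77.3, 44.0, 1470 and 1923 in the RKO arrays with TSA, against 130, 2276, 1792 and 193 in those without TSA, so the array labelled PJ-34 was high and the one labelled PJ-34/5-aza-dC low. No probe set passed for TSA in RKO, with 0.0% in each direction (limma, where 3180 had an unadjusted p under 0.05 and the lowest adjusted p was 0.187). Without both of these arrays, a choice made after seeing the data, 2 probe sets passed. Neither array carries TSA, so the TSA groups stay as labelled, but the RKO model assigns the other drugs by these labels. Of the 864 genes that rose in HCT116, 702 (81.3%) had a positive change in RKO, where 52.8% of all genes were positive. Of the 901 that fell in HCT116, 607 (67.4%) had a negative change in RKO. The medians of these 2 sets in RKO were 0.12 and -0.11. Without the 2 RKO arrays they were 0.09 and -0.10, with 74.8% and 65.4% in the same direction as in HCT116 and 49.7% of all genes positive.

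The difference of the TSA effect between the lines was tested for 38405 probe sets, of which 66 (0.172%) had a higher and 100 (0.26%) a lower change in HCT116 than in RKO. With 1 array left out between 18 (HCT116 PJ-34) and 761 (HCT116 PJ-34/5-aza-dC) passed in all, and 56 did without both RKO arrays that go against their labels. RUNX2 had a change of 1.62 in HCT116 and -0.24 in RKO (adjusted p of the difference 0.00677 and, without both RKO arrays, 0.0269). THSD4, an extracellular protein of microfibrils, had -1.33 in HCT116 and 1.30 in RKO (0.00677 and 0.0189), although its RKO signals were 211 or less in all 8 arrays. CCND1 had 0.84 in HCT116 and -0.11 in RKO (0.00909 and 0.0329), and ADM 1.12 in HCT116 and 0.12 in RKO (0.0124 and 0.0498). The MAPK phosphatase DUSP5 had -0.93 in HCT116 and 0.33 in RKO (0.0138 and 0.0293). MDM2 had 1.27 in HCT116 and -0.05 in RKO (0.0476), where the difference was not past the test without both RKO arrays (0.19), and neither was that of E2F1, at 0.81 in HCT116 and -1.05 in RKO (0.0405 and 0.201).

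Of the lists, the p53 targets had a median of 0.63 in HCT116 and 0.25 in RKO, and the integrated stress response genes -0.98 in HCT116 and -0.23 in RKO, or 0.26 and -0.29 in RKO without both arrays that go against their labels. The replication genes had 0.44 in HCT116 and 0.03 in RKO, and the heat shock genes 0.44 in HCT116 and 0.04 in RKO. The ribosome biogenesis genes had 0.48 in HCT116 and 0.15 in RKO. No list was tested for a difference between the lines. ASNS had RKO signals of 5691, 5041, 5004 and 4584 with TSA, against 11052, 4897, 4554 and 15313 without TSA, and the 2 high arrays without TSA were the control and the one labelled PJ-34/5-aza-dC.

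**Figure D5:**
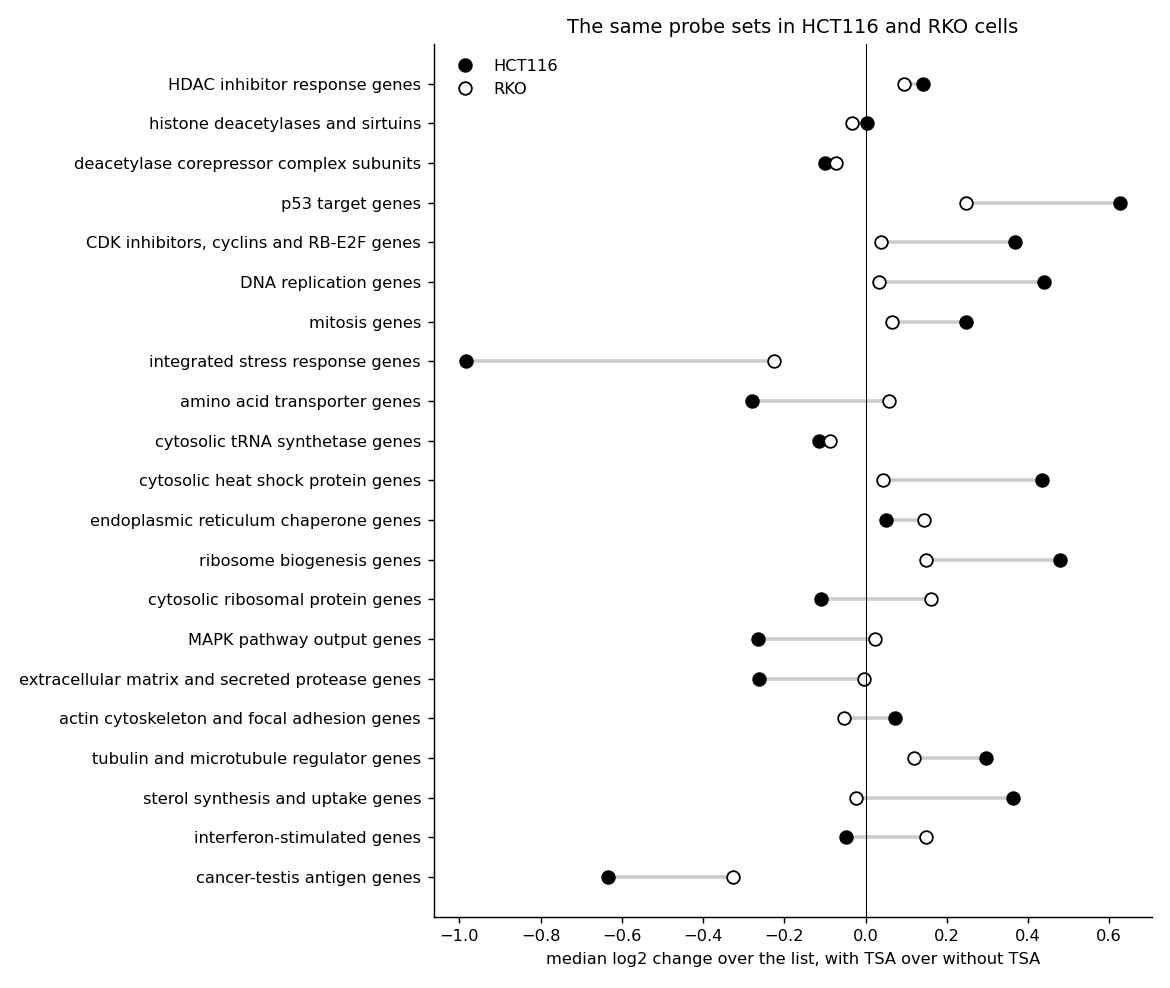
Median change under TSA (horizontal axis, log2 of the signal with TSA over that without TSA) of the genes of 21 lists in HCT116 cells (filled circles) and RKO cells (open circles), from the same probe sets. For the p53, replication, heat shock, ribosome biogenesis and integrated stress response genes the open circles lie on the same side of 0 as the filled ones and nearer to it.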

How the data were processed

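Gene expression was measured on Affymetrix human genome arrays, 1 array per condition, in HCT116 and RKO cells after 3 days of drug treatment. The deposited values are linear intensity values per probe set, which the authors obtained with the array software (GCOS, per the labels' processing notes) after scaling each array to the same trimmed mean. Scanner files and scan dates were not used here, so batches of arrays were not tested. Of 54675 probe sets, 62 controls were left out. Gene symbols came from the platform annotation: 41097 probe sets have 1 symbol, 1801 have several and 11777 have none, and 43 symbols were updated by gene number. No probe set with several symbols was given a name.

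A floor of 50 was set on the signals before log2, and probe sets at 100 or more in at least 4 of the 8 arrays of a line were kept, for both lines together where either line reached this. limma 3.58.1 in R 4.3.3 was used (lmFit, then eBayes with a trend on the mean signal) with TSA, PJ-34 and 5-aza-dC as terms, and p-values were adjusted over all probe sets tested by the Benjamini-Hochberg method. The difference between the lines was the interaction of line and TSA in 1 fit of 16 arrays, and interactions of TSA with the other drugs were fitted in the 8 HCT116 arrays. The arrays of a group are separate conditions, so no replicate cultures enter any test, and the number of arrays limits the precision.

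Arrays enter by their labels, but the comparison described, its named genes and the gene lists were chosen with earlier results of these data known, and lists share genes (CALR, CCND1 and others). Named first were up to 15 genes per direction with the largest change. These had to be past the test, to average 200 or more in the higher group, and to change the same way in all 4 pairs of arrays that differ in TSA alone. Per list and direction, up to 4 genes past the test with the smallest p were added or, where none passed, those with the smallest p. The others were up to 5 genes per direction with the largest difference between the lines past the test, and HDAC1, HDAC2, HDAC3, HDAC6 and HDAC8. The text describes most of the named genes. ASNS was named after its values were seen. Alternatives were floors of 20 and 100, no filter, quantile normalization, no trend, leaving out each array, added interaction terms, the pairs of conditions that differ in TSA alone as a block, only the arrays with or without 5-aza-dC, all 16 arrays in 1 fit, and the mean over the probe sets of a gene.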

Additional observations from a re-analysis of the deposited data

Results flagged for a closer look

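Among the groups of 4 arrays that were examined, 3 signals lay far from the other 3 of their group by Dixon's test, which by chance marks about 1 in 20 groups. The number of groups examined is not given here, so the 3 cannot be set against that rate, and they are not all such signals of the named genes. In the arrays with TSA, MCM10 was high in the array with TSA alone, at 3466. In the arrays without TSA, PJ-34/5-aza-dC was high for PES1, at 4406, and for HDAC1, at 30058. PJ-34/5-aza-dC is the array that stood nearest to those with TSA. It was also well above the other arrays without TSA for CCNB1, at 20192 against 14656 or less, and for AURKA, at 8200 against 6373 or less.

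The change under TSA differed between HCT116 and RKO (limma, adjusted p under 0.05) for 21 named genes, given as the log2 change in HCT116 minus that in RKO. It was higher in HCT116 for RUNX2 (1.86), E2F1 (1.85), MDM2 (1.31), ZNF326 (1.14), PRR34-AS1 (1.12), ADM (0.99), CCND1 (0.96) and HSPE1 (0.58). It was lower in HCT116 for GABRA5 (-2.79), SBSPON (-2.67), THSD4 (-2.63), CLIC3 (-2.18), C6orf141 (-1.89), PCK2 (-1.26), DUSP5 (-1.26), SPRY4 (-1.06), HLA-E (-0.91), ITGA5 (-0.88), CTSB (-0.79), IFITM2 (-0.75) and SLC38A2 (-0.71). Without both RKO arrays that go against their labels, 8 of the 21 stayed past the test, which were ADM, CCND1, DUSP5, HLA-E, PRR34-AS1, RUNX2, SLC38A2 and THSD4.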

How the results depend on the processing

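The count of 3180 probe sets under TSA in HCT116 lay between 2553 and 4140 with floors of 20 and 100, quantile normalization, added interaction terms and all 16 arrays in 1 fit. It was 323 with no filter, 0 with no trend, 4849 with only the arrays without 5-aza-dC and 1932 with only those with it. With 1 array left out it ran between 928 (without PJ-34) and 5426 (without PJ-34/5-aza-dC). The interaction counts of 0 became at most 2 for 5-aza-dC (lowest 0) and at most 3 for PJ-34 (lowest 0) with 1 array left out. The 166 probe sets that differed between the lines became 36 with no filter, 3 with no trend and 56 without both RKO arrays that go against their labels, the last chosen after seeing the data, and 18 to 761 with 1 array left out. The causes of these differences were not tested. Of the 190 named genes, MACROH2A1 (-0.014) and TPM2 (-0.034) changed sign when the mean over all probe sets of a gene was used, and no other did under these settings, while 171 lost the test with no trend and 148 with no filter. No paired analysis was possible because no condition has a second array, so that no replicate number pairs 2 cultures. The 4 pairs of arrays that differ in TSA alone are pairs of conditions, and with these as a block, a setting chosen after seeing the data, 4619 probe sets passed and none of the 190 named genes lost the test or changed sign. With 1 array per condition, the spread between cultures cannot be estimated, and genes of low signal, near the floor of 50, have understated changes.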
